A study of Rattus norvegicus with 8 samples.

Results

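E-cadherin, the proteins that bind it, the sodium pump regulator Fxyd5 and the protease inhibitor Spint2 were followed in the adrenal glands of newborn rats raised in low oxygen. Of 9 genes asked for by symbol, 8 had at least 1 probe set named for them alone, out of 10411 genes named on the array. They were Cdh1, Cdh2, Epcam, Ctnnb1, Ctnna1, Ctnnd1, Fxyd5 and Spint2, with 12 probe sets in all, and Spint1 had no probe set named for it. Cdh1, Fxyd5 and Spint2 were chosen by their hypoxic against normoxic differences in these same pools, and the other genes as their partners or relatives, so the group differences of the members are given as a description and no test is drawn from them.

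Pups of 1 group were kept with their dams from birth in 12% O2 (hypoxic), and pups of the other group in room air with dams fed freely (normoxic). Glands of both groups were taken on postnatal day 7 and stripped of their capsule, and 24 glands were pooled for each sample. There were 4 hypoxic and 4 normoxic pools, each read on 1 array of 1 colour. Strain, sex and the spread of litters over pools are not given in the sources used here, and each pool averages 24 glands, so differences between single animals could not be seen. A pool mixes cortex, medulla, vessels and nerve, and fewer cells of a type and less RNA per cell cannot be told apart in it.

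Cadherins are membrane proteins that hold neighbouring cells together in the presence of calcium. Inside the cell the cadherin tail binds beta-catenin and delta-catenin, and beta-catenin binds alpha-catenin, which connects the junction to actin. Beta-catenin is also the messenger of the Wnt pathway, which acts in the outer adrenal cortex. Fxyd5, called dysadherin, belongs to the small FXYD proteins that associate with the sodium pump, and it was named for weakening adhesion by E-cadherin. Spint1 and Spint2 are membrane-bound Kunitz inhibitors of serine proteases of epithelia, such as matriptase and hepsin.

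Each value is the intensity of a probe set, in arbitrary units, scaled by the authors so that every array has the same mean after trimming 2% at each end (500.1). Array medians ran from 228.2 to 248.7. Background was taken as 46.6, the level that 95% of the values of 27 probe sets for Bacillus genes did not exceed (their median was 5.4). Genes of the inner cortex and of chromaffin cells were bright in every pool, as the label of the tissue calls for: the summed intensity of 8 cortex genes ran from 89170 to 131671, and 0 of them lay at background. Differences are given on a log2 scale after adding 16 to the intensity, hypoxic minus normoxic, with the standard error from limma fitted to all 11106 probe sets that passed a brightness filter. Of the 12 member probe sets 10 passed that filter, for 7 genes, and those of Epcam and 1 of the 4 for Ctnnb1 did not.

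In outline, the adhesion receptor Cdh1 was lower in hypoxic glands by 1.08 log2, Fxyd5 was higher by 0.85 and Spint2 by 0.64, while the catenins and Cdh2 differed by at most 0.22 in either direction. By limma's adjusted p of 0.05 there were 3 calls among the 10 tested member probe sets. Of all tested probe sets 0.18% were called. The 3 calls were 2 higher and 1 lower in hypoxic glands, where 0.117% and 0.063% of all tested probe sets were called in those directions, and because the members were chosen with this comparison known, nothing is read from the contrast of these shares. The hypoxic and normoxic values did not overlap for 4 of the 10, Cdh1, Fxyd5, Spint2 and Ctnna1, against 5.39% of all tested probe sets. These were 3 higher and 1 lower, where the shares of all were 2.76% and 2.64%. A difference above 0 was found for 6 of the 10 and for 45.2% of all. The median difference of the 10 was 0.05, and that of all tested probe sets was -0.019. The last probe set to pass, of the centromere gene Itgb3bp, had an adjusted p of 0.0429 in limma, and the first that did not pass, of the mitotic gene Birc5, had one of 0.0509.

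**Figure D1:**
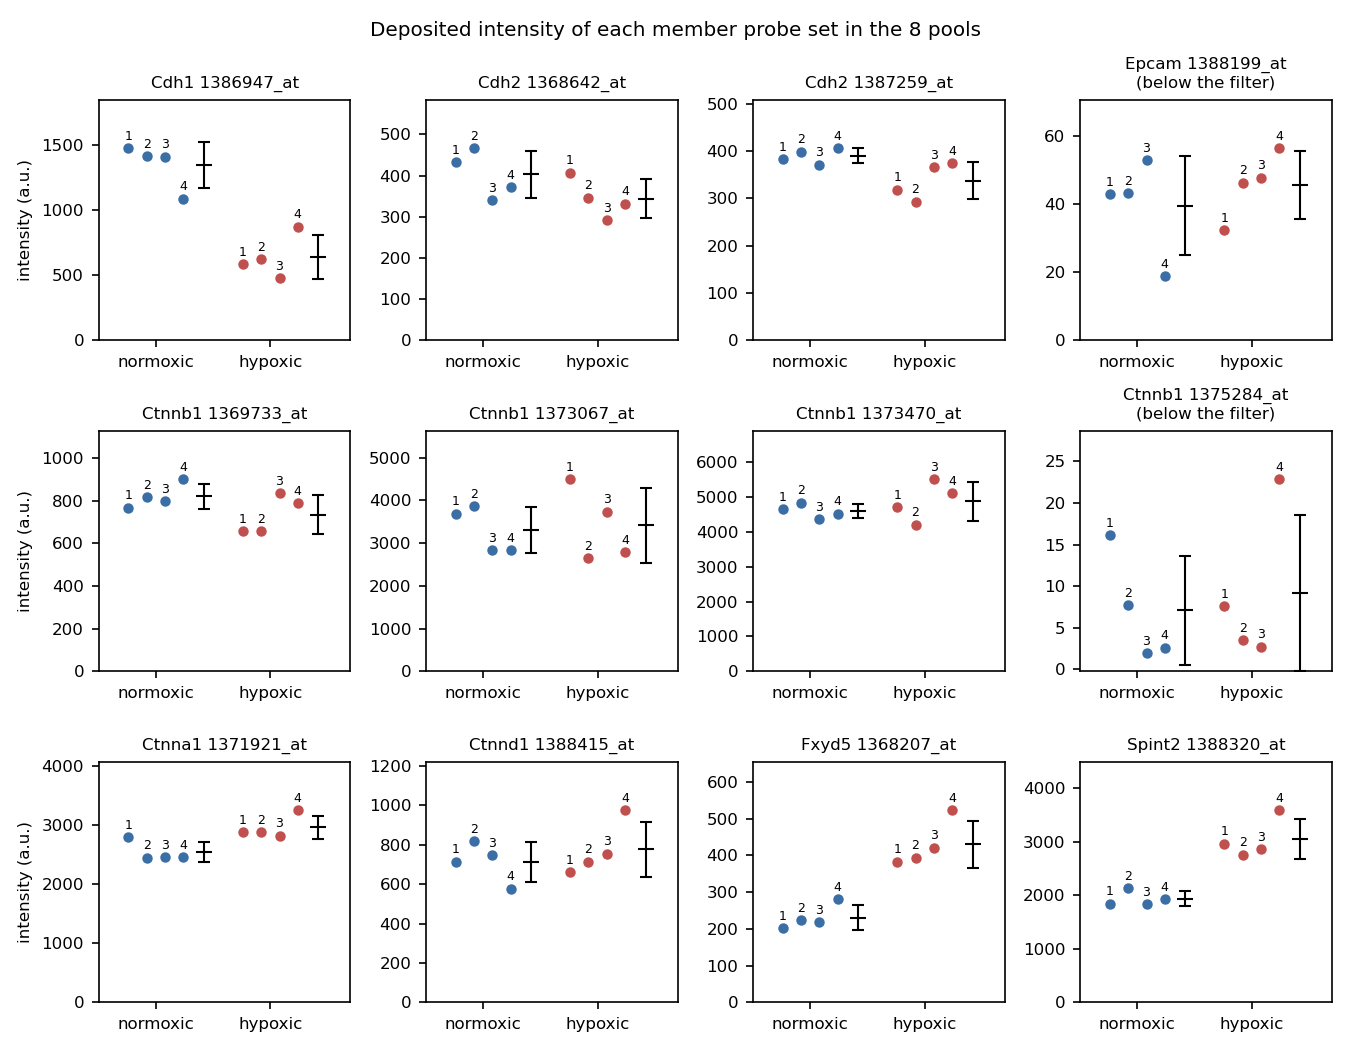
Intensity (arbitrary units, linear axis) of each of the 12 member probe sets in the normoxic (blue) and hypoxic (red) pools, numbered by replicate, with the mean and SD of 4 pools in black. Cdh1 ran from 1087 to 1472 in normoxic and from 478 to 872 in hypoxic pools, and Fxyd5 and Spint2 were higher in every hypoxic pool than in any normoxic one.

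Cdh1 encodes E-cadherin, the classical cadherin of epithelia. Its probe set (1386947_at) measured 1472, 1414, 1408.5 and 1087 in normoxic pools 1 to 4 and 585, 622, 478 and 872 in hypoxic pools 1 to 4. The highest hypoxic pool stayed below the lowest normoxic pool, and both groups had 1 pool, the fourth of each, that lay toward the other group. The mean was 1345 ± 175 (SD, n = 4) in normoxic and 639 ± 167 (n = 4) in hypoxic glands, a fold of 0.473, with a 95% interval of the log2 difference from -1.44 to -0.72. Of all 11106 tested probe sets only 8 had a lower difference, Cdh1 being the ninth from the bottom (rank 9). Its spread within groups was wide for the array, with a residual SD of 0.29 log2, larger than that of 80.0% of tested probe sets.

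Cdh2 encodes N-cadherin, a classical cadherin best known from neural and mesenchymal cells, and had 2 tested probe sets. The first (1368642_at) measured 433, 466.5, 339.8 and 373 in normoxic and 408, 347, 292 and 332 in hypoxic pools. The second (1387259_at) measured 383, 399, 371 and 406 in normoxic and 318, 293, 366 and 374 in hypoxic pools. The groups overlapped at both, with a difference of -0.22 (standard error 0.14) at the first and -0.20 (0.11) at the second. The lower intervals reached -0.52 and -0.45 and the upper ones 0.08 and 0.05, so no difference and a moderately lower level both lie inside them. Although the 2 probe sets gave near equal group differences, they did not track each other from pool to pool, with a Pearson r of -0.28 between their deviations from the group means (8 pools).

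Epcam encodes an adhesion protein of epithelial cells that is not a cadherin. Its probe set (1388199_at) read 43.0, 43.2, 53.0 and 18.9 in normoxic and 32.3, 46.3, 47.8 and 56.4 in hypoxic pools. Of these values 5 of 8 lay at or below the background level of 46.6, so the transcript was not distinguishable from background on this array and no difference is drawn for it.

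The catenins bind the cadherin tail from the inside. Ctnna1, alpha-catenin, which ties the complex to actin, measured 2789, 2444, 2453 and 2458 in normoxic and 2881, 2880.0, 2818 and 3247 in hypoxic pools. All hypoxic pools lay above all normoxic pools, but the gap between the nearest pools was small, from 2789 to 2818. The difference was 0.22 with a standard error of 0.09 and an interval from 0.03 to 0.41, and it did not pass after adjustment over all probe sets. Ctnna1 was among the steadiest probe sets within groups, with a residual SD of 0.09 log2, larger than that of 5.72% of tested probe sets.

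Ctnnd1, delta-catenin, which holds cadherins at the cell surface, measured 714, 819, 747 and 577 in normoxic and 662, 714, 754 and 975 in hypoxic pools. The groups overlapped over most of their range, and the difference was 0.11 with a standard error of 0.14. Normoxic pool 4 was the lowest and hypoxic pool 4 the highest of the 8, and without hypoxic pool 4 the difference was 0.00.

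Ctnnb1, beta-catenin, the link between cadherin and alpha-catenin, had 3 tested probe sets. The brightest (1373470_at) measured 4654, 4832, 4350 and 4513 in normoxic and 4693, 4197, 5500.0 and 5103 in hypoxic pools, a difference of 0.08 (standard error 0.10, interval from -0.13 to 0.30). The middle one (1373067_at) measured 3692, 3858.5, 2837 and 2835 in normoxic and 4492, 2641, 3735 and 2785 in hypoxic pools, a difference of 0.03 (standard error 0.17), and its sign turned when single pools were left out. The dimmest of the tested ones (1369733_at) measured 768, 816, 797 and 901 in normoxic and 658, 658, 836.5 and 788 in hypoxic pools, a difference of -0.16 (standard error 0.11). At all 3 the groups overlapped, and the sign of the difference was not shared. The probe set 1375284_at read between 1.9 and 22.9, below background in all 8 pools.

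**Figure D2:**
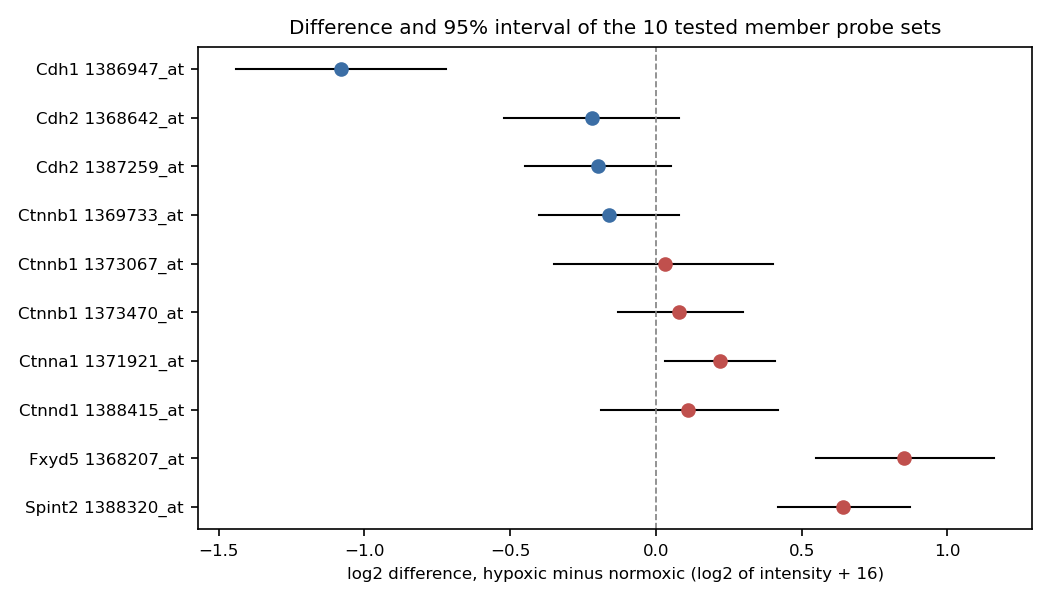
Log2 difference (hypoxic minus normoxic, points) with its 95% interval (lines) for the 10 tested member probe sets. The intervals of Cdh1 (-1.44 to -0.72), Fxyd5 (0.55 to 1.16), Spint2 (0.42 to 0.87) and Ctnna1 (0.03 to 0.41) lie to one side of 0, and those of the other 6 hold 0.

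The stretches upstream of the annotated starts of Fxyd5 and Spint2 are shown because these 2 members were higher together. Sequences are from RefSeq on GRCr8, and 5 more windows were found, of Epcam, Ctnnb1, Ctnnd1, Spint1 and a second start of Fxyd5. The reference used held no window for Cdh1, Cdh2 or Ctnna1, so their upstream stretches were not searched. A pair of motifs was searched on both strands. The first was the E-box CACCTG (reverse CAGGTG), which the E-cadherin repressors of the Snail and Zeb families are known to bind. The second was ACGTG (reverse CACGT), 1 form of the core of the element bound by hypoxia-inducible factors. The other form of that core, GCGTG (reverse CACGC), was not searched, and the Spint2 stretch holds CACGC in lower case. Capitals mark every match to the searched letters, and no match of one motif overlaps a match of the other. The Fxyd5 stretch runs from 250 bases before the start, on the minus strand at chr1:95404723-95404972. The Spint2 stretch is the 177 bases before its start, on the minus strand at chr1:93708092-93708268, up to where another annotated gene begins. Ppp1r14a and LOC103689966 both overlap the 250 bases before the Spint2 start.
Fxyd5: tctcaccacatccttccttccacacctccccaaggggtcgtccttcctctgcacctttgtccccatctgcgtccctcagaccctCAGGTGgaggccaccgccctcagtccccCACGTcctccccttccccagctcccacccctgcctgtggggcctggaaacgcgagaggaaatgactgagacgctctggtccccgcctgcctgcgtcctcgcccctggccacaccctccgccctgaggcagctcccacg
Spint2: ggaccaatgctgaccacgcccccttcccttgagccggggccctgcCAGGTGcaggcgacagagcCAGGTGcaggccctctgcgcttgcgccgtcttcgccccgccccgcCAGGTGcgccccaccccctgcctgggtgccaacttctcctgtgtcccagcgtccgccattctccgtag
In the 250 bases before the start, Spint2 held 3 matches to the E-box, from positions -132, -113 and -68 counted back from the start. At least 3 such matches were found in 79 of 33465 windows of this length (0.236%), and at least 1 in 15.9%. These shares are over windows of any base composition, while the Spint2 window was 69.6% G or C. Spint2 also held the most E-box matches of the windows searched for the members. Fxyd5 held 1 E-box match, from -166, and 1 match to ACGTG, from -138. At least 1 match to ACGTG was found in 16.6% of windows. Epcam held 1 of each, Spint1 held 1 E-box match, and the windows of Ctnnb1, Ctnnd1 and the second start of Fxyd5 held neither set of letters. A match is a description of letters and says nothing about binding in these glands.

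Fxyd5 (1368207_at) measured 203, 224, 218 and 280.4 in normoxic and 383, 394, 421 and 523 in hypoxic pools. Every hypoxic pool was above every normoxic pool, and pool 4 was the highest of each group. The mean was 231 ± 34.0 (SD, n = 4) in normoxic and 430 ± 63.9 (n = 4) in hypoxic glands, a fold of 1.80 on the log2 scale with 16 added. It stood eleventh from the top among all tested differences (rank 11).

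Spint2 (1388320_at) measured 1844, 2128.5, 1839 and 1933 in normoxic and 2966, 2758, 2864 and 3586 in hypoxic pools. The lowest hypoxic pool was clear of the highest normoxic one, and hypoxic pool 4 was again the highest. The mean was 1936 ± 135 (SD, n = 4) in normoxic and 3043 ± 371 (n = 4) in hypoxic glands, a fold of 1.56 and rank 43 from the top. Spint1, its close relative, could not be compared.

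The count of 3 members past the threshold moved when single pools were left out. It was 0 without normoxic pool 1, 2, 3 or 4 and without hypoxic pool 2 or 3, 1 without hypoxic pool 4 (Cdh1), and 3 without hypoxic pool 1. The differences themselves moved little, from -1.24 to -0.95 for Cdh1, from 0.76 to 0.94 for Fxyd5 and from 0.56 to 0.69 for Spint2 with 1 pool left out. The count was also 0 with no brightness filter, with no variance trend, and with the Gapdh 5' over 3' ratio or the mean of the kidney markers as a covariate, and 1 with the mean of the adipose markers as a covariate.

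Because array scaling and brightness act on all probe sets of an array, the members were also set against each other within arrays. The log2 ratio of Fxyd5 to Cdh1, set to a mean of 0 in normoxic pools, was -0.30, -0.12, -0.15 and 0.57 in those pools and 1.87, 1.82, 2.29 and 1.74 in hypoxic ones. That of Spint2 to Cdh1 was at most 0.29 in normoxic and at least 1.49 in hypoxic pools. The ratio of Fxyd5 to Spint2 overlapped between groups, from -0.17 to 0.27 in normoxic and from 0.09 to 0.27 in hypoxic pools. Against its own catenins Cdh1 was lower in every hypoxic pool, by a mean of 1.30 log2 (-1.30 ± 0.27, SD, n = 4) relative to Ctnna1, of -1.16 ± 0.41 relative to the brightest Ctnnb1 probe set and of -1.19 ± 0.23 relative to Ctnnd1. The ratio to Ctnnd1 was the tightest of these 3 in normoxic pools, with an SD of 0.10 log2. These ratios show unequal change between transcripts and hold the same group difference that chose Cdh1, Fxyd5 and Spint2.

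Pools of 1 group differed from each other in several members at once. Hypoxic pool 4 was the highest hypoxic pool for Cdh1 (0.47 log2 above its group mean), Ctnnd1 (0.34), Fxyd5 (0.28), Spint2 (0.24) and Ctnna1 (0.14). Normoxic pool 4 was low in Cdh1 (-0.29) and Ctnnd1 (-0.29) and high in Fxyd5 (0.27). Over the 8 deviations from the group means, Pearson's r was 0.78 between Cdh1 and Ctnnd1, 0.74 between Cdh1 and Ctnna1, 0.62 between Cdh1 and Spint2 and 0.64 between Fxyd5 and Spint2. Between Cdh1 and Fxyd5 it was 0.13. So Cdh1 and Spint2, which differ in opposite directions between the groups, deviated to the same side in 5 of 8 pools within them. These r are descriptions over 8 pools, 2 of which were low or high in several members, and the points share array scaling.

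**Figure D3:**
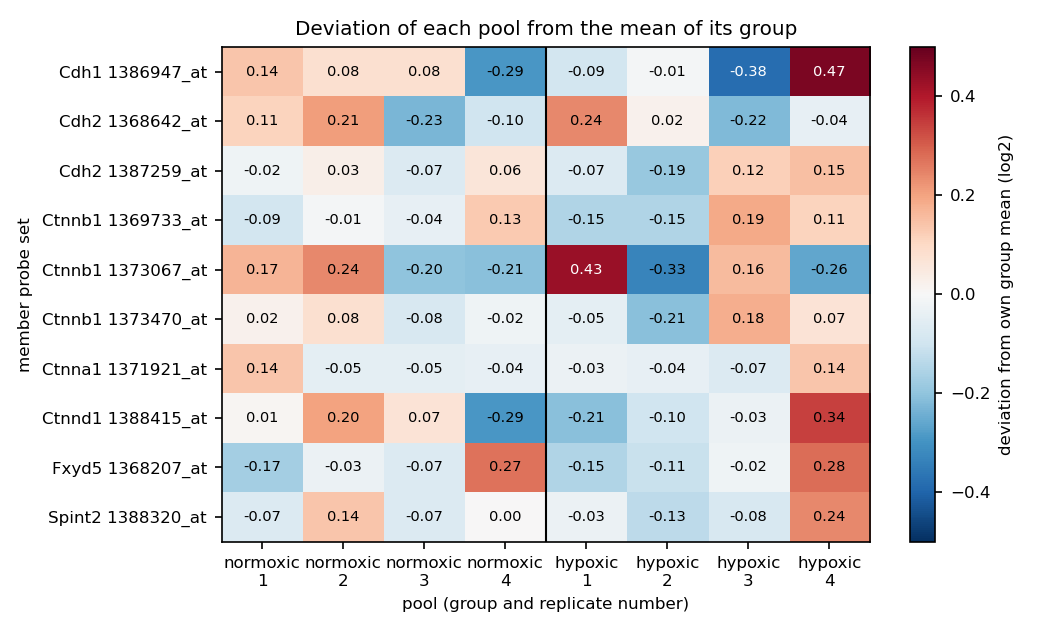
Deviation of each pool from the mean of its own group (log2, blue below and red above) for the 10 tested member probe sets, with the normoxic pools left of the line. Hypoxic pool 4 is above its group mean in 8 of the 10 rows and reaches 0.47 for Cdh1.

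Transcripts whose pattern over the 8 pools was most like that of these genes were named by the highest and lowest Pearson r, group difference included. For Cdh1 the highest were Msantd4 (r = 0.96), the glutathione transferase gene Gstm2 (0.95) and the spindle orientation gene Gpsm2 (0.94), and the lowest were the transcription factor gene Hhex, the methyl-CpG binding protein gene Mbd2 and the heme synthesis gene Alas2, each at -0.95. For Alas2 the r between deviations from the group means was -0.94. For Fxyd5 the highest were the signal transducer gene Stat3 (0.98), Cobll1 (0.96) and the mitochondrial carrier gene Slc25a18 (0.96), and the lowest were the phospholipase gene Pla2g4a (-0.97), the acetyl-CoA synthetase gene Acss2 (-0.97) and the centromere gene Cenpi (-0.96). For Spint2 they were Nolc1, Nfatc3 and Tmem176a (each 0.96) and, at the other end, Itgb3bp (-0.98), Cfap418 (-0.98) and Cenpi (-0.97). Stat3 was also among the 3 nearest to Fxyd5 by deviations alone (0.95), with the lectin gene Lgals3 (0.96) and the tetraspanin gene Cd151 (0.96). By deviations the nearest to Cdh1 were Smarca4 (0.98), Disp2 (0.97) and Csnk1d (0.97), and to Spint2 Gse1 (0.98), Tbcb (0.96) and Thy1 (0.96). These r are descriptions over 8 pools that share the group difference and the array scaling, and no p is given.

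Fxyd5 and Spint2 lie on chromosome 1 in the rat reference assembly GRCr8, with 71 protein-coding genes between them, which was noticed after their values were seen. Of these 71 genes 28 were tested here and 0 passed an adjusted p of 0.05 in limma, where 0.225% of all tested genes did. The unadjusted p was under 0.05 for 1 of the 28, where it was for 8.56% of all tested genes, and the groups did not overlap for 2, Cox7a1 and Tbcb, where they did not for 5.75% of all. Among the 28, 12 had a difference above 0 and 16 below, with a median of -0.02 and a range from -0.75 (Cox7a1, a respiratory chain subunit of muscle and brown fat) to 0.59 (Gapdhs). The 2 members stood above all 28 of the tested genes that lie between them. Because both were chosen by this same difference, that standing was largely set by the choice, and nothing is read from it.

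**Figure D4:**
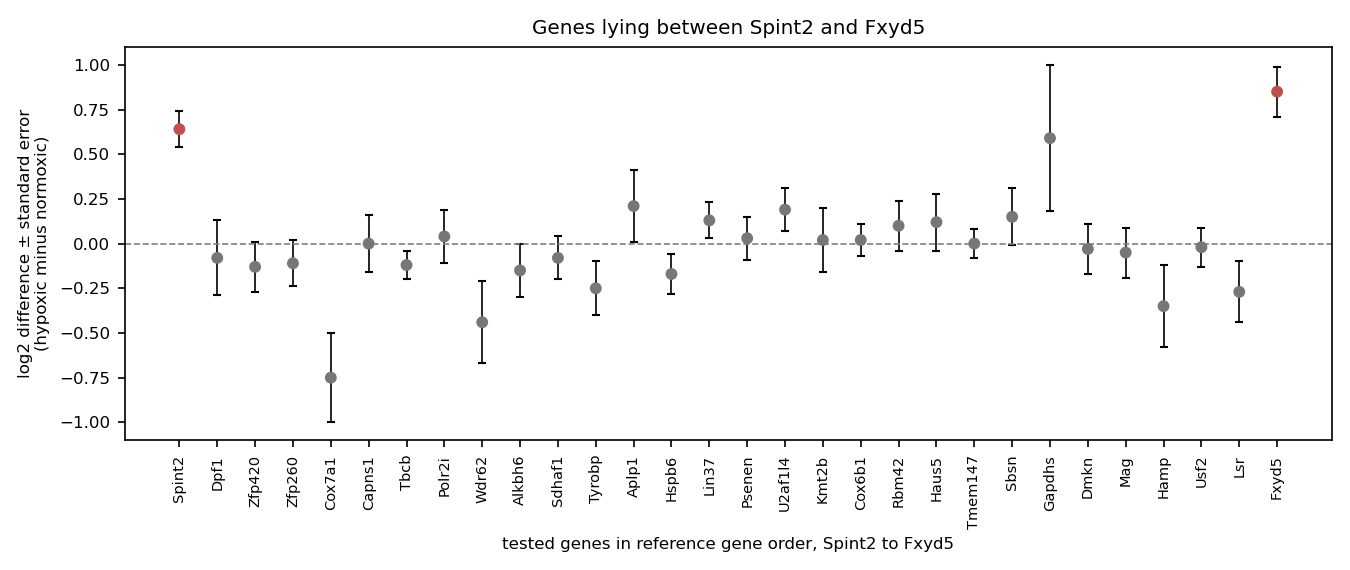
Log2 difference (hypoxic minus normoxic) with its standard error for the 28 tested genes between Spint2 and Fxyd5 (grey) and for both of these (red), in the gene order of the reference, with equal spacing. Spint2 (0.64) and Fxyd5 (0.85), which were chosen by this difference, stand above the 28 genes between them, of which Gapdhs is the highest at 0.59.

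Genes around the members were read from lists, at the brightest tested probe set of each gene. Of 20 E-cadherin repressors and mesenchymal genes listed, 14 were on the array and 10 were tested. Of these 10, 0 passed an adjusted p of 0.05 in limma. An unadjusted p under 0.05 was found for 0 of them, beside 8.56% of all tested genes. Their median difference was -0.03, beside -0.01 for all tested genes. Snai1, a repressor of E-cadherin, measured 383 ± 26.2 and 369 ± 78.0 (SD, n = 4 each), and Zeb1, another, 915 ± 213 and 794 ± 110 (difference -0.18, limma adjusted p = 0.815). Of the others with the lowest p, Tgfb3, a growth factor, differed by 0.36 and the forkhead gene Foxc2 by -0.35, with limma adjusted p of 0.601 and 0.691. Vim, which encodes vimentin, differed by 0.15, and Twist1 was at background. Twist2 and Tcf3 did not pass the brightness filter, with Tcf3 at 85.7 ± 25.5 and 38.2 ± 24.4 (SD, n = 4 each). Snai2, Snai3 and Zeb2 had no probe set named for them, so these repressors were not compared.

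The other cadherins lay near 0. Of 8 tested genes 0 passed in limma, 1 had an unadjusted p under 0.05, and the median was 0.05. That 1 was the giant cadherin gene Fat1, at 3144 ± 202 and 3647 ± 305 (difference 0.21, adjusted p = 0.547). Cdh3, P-cadherin, which lies close to Cdh1 in the genome, measured 190 ± 20.8 and 201 ± 35.4 (difference 0.07). Cdh22 differed by -0.21 and the flamingo cadherin gene Celsr3 by 0.16.

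Of the adherens junction partners 0 of 23 tested genes passed in limma, and 5 had an unadjusted p under 0.05, where 8.56% of all tested genes did, each of the 5 with a difference above 0. In all 17 of the 23 were above 0, where 47.5% of all tested genes were, and the median was 0.12. Ctnna2, the neuronal alpha-catenin, measured 98.6 ± 23.8 and 170 ± 26.3 (difference 0.71, adjusted p = 0.234). The actin cross-linker gene Actn1 differed by 0.37 (adjusted p = 0.407), and a second probe set by 0.11. The junctional phosphatase gene Ptprf differed by 0.30 (adjusted p = 0.533) with a second probe set at 0.04, the vinculin gene Vcl by 0.24 and the afadin gene Afdn by 0.26. A second probe set went the other way for Vcl (-0.09) and for Afdn (-0.23). Jup, plakoglobin, which can take the place of beta-catenin at the cadherin tail, differed by 0.05.

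Epithelial junction and keratin genes were mostly dim. Of 29 genes on the array 12 were tested and 10 lay at background on average, among them Krt18, Krt19, Cldn3, Cldn4 and Cldn7, which mark simple epithelia. In limma 0 of the 12 passed and 0 had an unadjusted p under 0.05, with a median of 0.08. The desmosome gene Dsp measured 1248 ± 90.8 and 1368 ± 132 (difference 0.13, adjusted p = 0.781), the endothelial claudin gene Cldn5 differed by -0.31 and the keratin gene Krt8 by 0.20. Cdh1 was measured at 477.5 or more in every pool, while the group means of Epcam and of those 5 keratin and claudin genes were below 46.6. Other genes of the list were above that level. Krt8 measured 99.6 ± 16.4 and 116 ± 8.36, Ocln 133 ± 31.2 and 154 ± 27.8 at its brighter probe set, and F11r 1976 ± 285 and 1817 ± 316.

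The relatives and the pump partners of Fxyd5 lay near 0. Of the FXYD family and sodium pump, 5 genes were tested, 0 passed in limma, 0 had an unadjusted p under 0.05, and the median was 0.02. Atp1b1, a beta subunit of the pump, differed by 0.18 at its brighter probe set (3120 ± 155 and 3544 ± 233, adjusted p = 0.598) and by 0.10 at the other, Atp1b3 by -0.13 and Fxyd6 by -0.21 (adjusted p = 0.624). Fxyd1 and Fxyd3 differed by 0.10 and 0.02.

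Proteases that Spint2 can inhibit, with the growth factors and channels they act on, were dim, and 0 of 9 tested passed in limma or had an unadjusted p under 0.05, with a median of -0.03. The matriptase gene St14 measured 162 ± 17.9 and 153 ± 11.7, and the hepsin gene Hpn 98.1 ± 19.8 and 125 ± 34.5 (difference 0.29, adjusted p = 0.737). Plat, tissue plasminogen activator, differed by 0.12 and Met, the receptor for hepatocyte growth factor, by -0.21. Among 14 other Kunitz and serpin inhibitors 0 passed in limma and 1 had an unadjusted p under 0.05, with a median of 0.04. That was Serpini1, the neuronal serpin neuroserpin, which inhibits tissue plasminogen activator. It measured 399 ± 71.1 and 213 ± 30.2 (difference -0.85, standard error 0.15, adjusted p = 0.0647), with -0.81 at a second probe set. It did pass with the filter at the 50th percentile. Of the same list, App differed by 0.10 at its brighter probe set and by 0.28 at the other, and Aplp1 by 0.21.

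Of the Wnt and beta-catenin pathway, 29 genes were tested, 0 passed in limma and 2 had an unadjusted p under 0.05, where 8.56% of all tested genes did, with a median of 0.01. These 2, Sfrp4 and Frzb, encode secreted Wnt antagonists, and other secreted antagonists of the list, Sfrp1, Sfrp2 and Dkk3, differed by 0.15, 0.00 and 0.01. Sfrp4 measured 581 ± 119 and 931 ± 122 (difference 0.68, adjusted p = 0.139), with a dim second probe set at 0.04, and Frzb 3623 ± 438 and 4990 ± 608 (difference 0.46, adjusted p = 0.211), with 0.30 at its second. Ctnnbl1 differed by 0.27. The beta-catenin target gene Axin2 differed by -0.14, Ccnd1 by 0.01 at its brightest probe set (-0.37 and -0.27 at others) and Wnt4, a ligand of the outer cortex, by 0.20. Genes of E-cadherin cleavage and turnover had a median of -0.08, with 4 of 17 above 0, where 47.5% of all tested genes were. In limma 0 passed and 2 had an unadjusted p under 0.05, where 8.56% of all tested genes did. These were Rab5a, a regulator of early endosomes, at 681 ± 14.9 and 489 ± 60.5 (difference -0.47, adjusted p = 0.159, and -0.57 at a second probe set), and the sheddase gene Adam9 (difference -0.67, adjusted p = 0.551). Adam10, the main sheddase of E-cadherin, differed by -0.39 (adjusted p = 0.662), and Arf6, which acts in cadherin endocytosis, by -0.18 (adjusted p = 0.622).

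**Figure D5:**
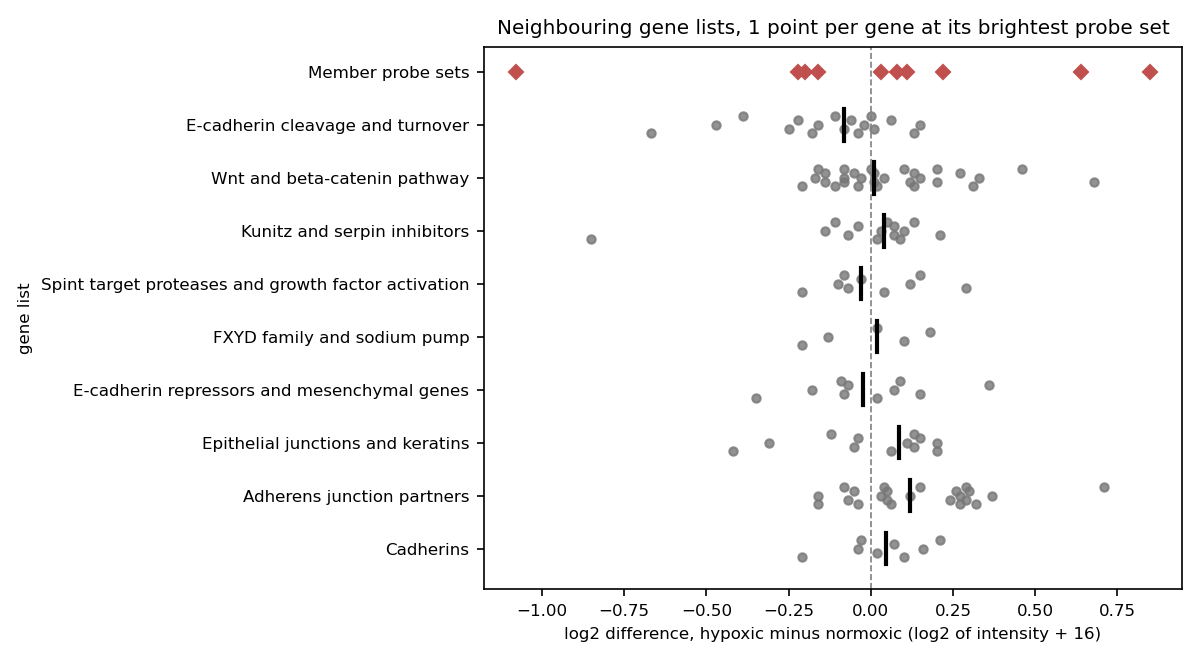
Log2 difference (hypoxic minus normoxic) of each tested gene of the 9 neighbouring lists (grey points, black bars for the list median) and of the 10 tested member probe sets (red diamonds). List medians lie between -0.08 and 0.12, and Cdh1 lies left of every listed gene.

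Markers of other cells were read beside the members, since E-cadherin is abundant in kidney epithelium and the dissected gland touches other tissue. Of 20 kidney markers on the array 12 were at background, Umod, Slc12a1, Slc12a3, Aqp2, Pax8 and Cdh16 among them, and their summed intensity ran from 2631 to 3326 in normoxic and from 2367 to 3344 in hypoxic pools. Of the 5 that were tested 0 passed in limma and 0 had an unadjusted p under 0.05. With the mean of these 5 kidney markers as a covariate the difference of Cdh1 was -1.09, that of Fxyd5 0.84 and that of Spint2 0.62. None of the 12 at background was among these 5, and whether the adrenal gland makes the 5 itself was not tested. This fit therefore cannot gauge kidney tissue in the pools. All 11 tested adipose genes had differences below 0 (median -0.13), 1 of them with an unadjusted p under 0.05, with sums from 7145 to 17358 and from 6178 to 13637. With their mean as a covariate the same 3 differences were -1.15, 0.86 and 0.63. All 12 tested chromaffin genes had differences above 0, where 47.5% of all tested genes did, and 7 had an unadjusted p under 0.05, where 8.56% of all did (median 0.30, sums from 37692 to 49817 and from 44210 to 60454), with 1, the vesicle transporter gene Slc18a2, past the threshold in limma, where 0.15% of all genes were called higher, and all 4 tested red cell genes were above 0, 2 of them with an unadjusted p under 0.05 (median 0.33, sums from 20701 to 22969 and from 22291 to 30823). Alas2, 1 of those 4, ran opposite to Cdh1 over the 8 pools (r = -0.95). It had been named above because its r with Cdh1 was among the lowest of all, and r is not given for the other red cell genes. The part of chromaffin and red cell transcripts in the members' differences was not tested.

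In the remaining marker lists 0 genes passed in limma. Unadjusted p under 0.05 was found for 0 of 8 inner cortex, 0 of 6 capsule and glomerulosa, 0 of 5 liver, 1 of 11 endothelial, 0 of 8 Schwann cell, 3 of 13 leukocyte and 0 of 13 fibroblast genes, where it was for 8.56% of all tested genes. The list medians, in the same order, were 0.02, 0.01, 0.09, -0.01, 0.01, -0.13 and 0.04. The 3 leukocyte genes and the 1 endothelial gene were lower in hypoxic glands. RNA integrity was read from the 5' over 3' ratio of control probe sets. For Gapdh it was 0.664 ± 0.0646 (SD) in the normoxic group and 0.609 ± 0.0423 in the hypoxic group (exact permutation p = 0.2, two-sided, n = 4 each), and for beta-actin 0.607 ± 0.143 and 0.495 ± 0.190 (exact permutation p = 0.4). The smallest p this design allows is 0.0286. With the Gapdh ratio as a covariate Cdh1 differed by -0.99, Fxyd5 by 0.93 and Spint2 by 0.66.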

How the data were processed

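Total RNA of pooled rat adrenal glands was labelled with biotin and hybridised to 1-colour arrays, per the labels. The deposited unit is intensity, linear and 1 value for each probe set, and the values show that the authors scaled each array to a trimmed mean of 500.1. No source used here names the summarising software. Such scaling hides a change shared by most transcripts.

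Gene symbols came from the platform annotation: 12783 of 15866 probe sets had 1 symbol, 312 several and 2771 none, and 12748 matched a RefSeq gene ID. Log2 was taken of the value plus 16, with 1 as the lowest value allowed. Probe sets under the 30th percentile of mean log2 value (a signal of 95.2) were left out. Groups were compared with limma 3.58.1 under R 4.3.3, two-sided, using lmFit and then eBayes with its trend option. Adjustment was by Benjamini-Hochberg over the 11106 probe sets left. The steps were tested on simulated data. Tables and plots used Python 3.11.15, pandas 2.3.3 and matplotlib 3.10.9. No coordinates but those of the printed sequences are given.

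The members and lists were chosen with earlier results of these data known. From each list the 3 genes with the lowest p and any gene past the threshold were named, along with others chosen for their role after values were seen, and marker lists are given by counts. The labels name the pools as separate samples, and p-values measure the spread between them. Their number limits the precision. Alternatives were offsets of 1 and 64, other filters, no variance trend, quantile and median scaling, the replicate number as a block, covariates, averaged probe sets and leaving out each pool. The main fit did not pair the pools by replicate number. Correlations of same-numbered deviations were 0.323, 0.0026, 0.186 and -0.0434 for replicates 1 to 4. Normoxic pools 1 and 3 correlated most with the hypoxic pool of their own number, and normoxic pools 2 and 4 with hypoxic pools 4 and 3. Whether same-numbered pools shared a batch was not tested.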

Additional observations from a re-analysis of the deposited data

Results flagged for a closer look

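In 74 groups of 4 pools, for the 10 tested member probe sets and the 3 genes of lowest p in each of the 9 pathway lists, 6 groups held a pool far from the other 3, where chance gives about 1 in 20. For Cdh1 it was normoxic pool 4, at 1086.6, with the others from 1408.5 to 1472.2. For Ctnna1 normoxic pool 1 stood at 2788.6 above the others (2444.3 to 2457.8), and hypoxic pool 4 at 3246.7 above the others (2818.4 to 2880.8). Krt8 was low in normoxic pool 2 (75.3), Hpn was high in the same pool (127.5), and Tgfb3 was low in hypoxic pool 2 (309.9).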

How the results depend on the processing

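Of all tested probe sets 20 passed in limma, 3 of them members and 0 of them genes of the 9 pathway lists (cell marker lists are not counted here). With no filter, no variance trend, the Gapdh ratio or the kidney marker mean as a covariate these were 0 and 0 members, and with the adipose marker mean 9 and 1. With the filter at the 50th percentile 1 pathway list gene passed. Leaving out 1 pool gave from 0 to 31 calls, from 0 to 3 members and from 0 to 2 genes of the pathway lists. The replicate block, which rests on shared numbers only, gave 18 calls and 2 members, with Spint2 at an adjusted p of 0.0528 in limma. Cdh1, Fxyd5 and Spint2 kept their direction under all 20 alternatives, with adjusted p in limma from 0.0233 to 0.143, from 0.0258 to 0.125 and from 0.0245 to 0.131. The Ctnnb1 probe set 1373067_at turned to -0.03 with quantile normalization, -0.15 with the Gapdh covariate and lay between -0.12 and 0.14 with single pools left out (below 0 without the normoxic pools 3 and 4, -0.04 each, and the hypoxic pools 1 and 3, -0.12 and -0.03), and the mean of the Ctnnb1 probe sets was -0.02. The cause was not tested. Quantile normalization and median centring moved the median of all probe sets from -0.019 to -0.00194 and 0.0175. Signal near background limits Epcam and the claudin and keratin genes.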
